A study of Mus musculus with 18 samples.

Results

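The pituitary hormone genes were followed across 18 mouse arrays, 9 of immunoprecipitated RNA (IP) and 9 of whole brain RNA (WB). The 7 genes were Gh (growth hormone), Prl (prolactin), Pomc (proopiomelanocortin), Cga (the alpha subunit shared by the glycoprotein hormones) and the beta subunit genes Tshb, Lhb and Fshb. Every probe set annotated to exactly 1 of these symbols was taken, which gave 11 of the 45037 probe sets tested: 4 for Gh, 2 for Pomc and 1 for each of the other genes. Of all probe sets tested, 34945 had 1 gene symbol and covered 18193 genes.

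IP samples were poly(A) RNA captured with anti-flag beads from brain lysates of formaldehyde-perfused BAC transgenic mice, and WB samples were RNA of the whole brain of the same kind of mouse. In the transgene, the orexin coding sequence of the BAC was replaced by a rat PABP1 cDNA with a flag tag, followed by an internal ribosome entry site and eGFP, so that the orexin gene's own control region drove the tagged poly(A)-binding protein. All mice, those behind the WB samples included, carried this transgene on a C57BL/6J X DBA/2J background. Their age is given as 11 and 14 weeks without saying which sample had which age, and nothing in the labels says that each sample came from a separate animal, so p-values measure only the spread between these samples. The protocols describe removal of the brain and do not mention the pituitary. The nerve cell transcript Snap25 was bright in all samples, with an intensity of at least 41877.8 in IP and at least 30860.4 in WB. It was higher in IP (log2 difference 0.74, SE 0.14, adjusted p = 8.95e-05, limma). The orexin gene Hcrt did not differ between IP and WB beyond the spread of the arrays (log2 difference 0.21, SE 0.28, adjusted p = 0.568, limma).

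The anterior pituitary makes its hormones in separate cell types: somatotrophs make growth hormone, lactotrophs prolactin, corticotrophs and intermediate lobe melanotrophs POMC, thyrotrophs TSH, and gonadotrophs LH and FSH. TSH, LH and FSH each pair the common alpha subunit with a beta subunit of their own. POMC is a precursor cut into ACTH, alpha-MSH and beta-endorphin, and it is also made by neurons of the arcuate nucleus of the hypothalamus, which restrain feeding. The pituitary hangs below the hypothalamus on a thin stalk, and its hormone messages are among the most abundant messages of that gland.

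Promoter sequence was available in the RefSeq table (build GRCm38.p6) for 6 of the 7 genes, all but Gh. It is shown as a description, because the core of these promoters was alike. Each held the letters TATAAA, the core of a TATA box, on the gene's strand between 24 and 31 bases before the annotated start. This includes Tshb and Lhb, for which no array stood high, and a link between promoter sequence and the array values was not tested. Each line gives 30 bases on the strand of the gene, with TATAAA in capitals. In the order shown, the windows lie at chr13:27057534-27057563 (plus strand), chr12:3954908-3954937 (plus), chr4:34893737-34893766 (plus), chr3:102782724-102782753 (minus), chr7:45420903-45420932 (plus) and chr2:107059664-107059693 (minus).
Prl: atgtcaaaggttTATAAAgccagtgtctgc
Pomc: caaccctgcaagTATAAAagaagagagaag
Cga: ttactctgctggTATAAAagacagtgggag
Tshb: cgaatgcaattaTATAAAcaagaagatcag
Lhb: acaacccgcaggTATAAAgccaggtgccca
Fshb: gttttaagtttgTATAAAagatgaggtgta
Of 32851 mouse promoters of the same length in that table (250 bases before to 50 bases after the start), 2.22% held TATAAA on the gene's strand between 45 and 11 bases before the start, and 13.6% held it anywhere on either strand. The letters ATGNATA, a short form of the site bound by the pituitary factor POU1F1 (Pit-1), were searched on both strands and occurred in 8.84% of the promoters. Among the 6 promoters only that of Prl held them, once on the gene's strand 148 bases before the start and once on the other strand 47 bases before it. These windows lie at chr13:27057410-27057439 and chr13:27057511-27057540, and both are written on the strand of the gene with the match in capitals, so that the second shows the reverse complement.
Prl same strand: gtcttcctgaatATGAATAagaaataaaat
Prl other strand: cctgattatataTATTCATgaagatgtcaa
A match of letters is a description and does not show that a factor binds there, and TATAAA does not overlap ATGNATA in these windows.

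The values below are deposited intensities, which the MAS5 software puts on a linear scale with a trimmed mean of 500 on each array. They compare arrays for 1 probe set and do not rank different probe sets by abundance. The median intensity of an array was 153.6 to 203.4 in IP and 220.9 to 267.2 in WB. An array is said to stand high for a probe set where its intensity was at least 4-fold the median of its own group. Bacterial control probe sets for trpn, a transcript absent from mouse, read 7.4 to 145.6 over the 18 arrays, so values in that range were not above background. Where a group median lay in it, the fold of an array is given as a lower bound, its intensity over 145.6.

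Growth hormone and prolactin were high on 3 arrays: IP 1, WB 4 and WB 8. On the brightest Gh probe set, 1456595_x_at, the IP arrays had a lowest value of 119.2, a median of 178.1 and a highest value of 6200.2, reached on IP 1. The next highest IP array, IP 6, had 708.0. The WB arrays had a lowest value of 95, a median of 211.4 and a highest value of 8946.6, reached on WB 8, with 3405.8 on WB 4 and at most 379.3 on the others. The IP and WB ranges overlapped over most of their length, and the 3 high arrays were divided between the groups.

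The other Gh probe sets followed the same arrays, with 1 exception. Probe set 1437522_x_at reached 3845.8 on IP 1, against an IP median of 35.0, and 5461.9 on WB 8 and 1666.9 on WB 4, against a WB median of 34.2. Probe set 1460613_x_at reached 5252.5 on IP 1 (IP median 49.9), 9307.6 on WB 8 and 3338.7 on WB 4 (WB median 115.3). The exception was 1460310_a_at, which read 172.8 on IP 1 and had its highest IP value, 216.1, on IP 2 (IP median 52.2), while WB 8 had 5723.0 and WB 4 had 1406.6 (WB median 25.7). On 1456595_x_at, whose medians were above the bacterial controls, IP 1 was 34.8-fold its group median, WB 8 42.3-fold and WB 4 16.1-fold. On 1437522_x_at, 1460613_x_at and 1460310_a_at the folds were at least 26.4, 36.1 and 1.19 on IP 1, at least 37.5, 63.9 and 39.3 on WB 8, and at least 11.4, 22.9 and 9.66 on WB 4.

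**Figure D1:**
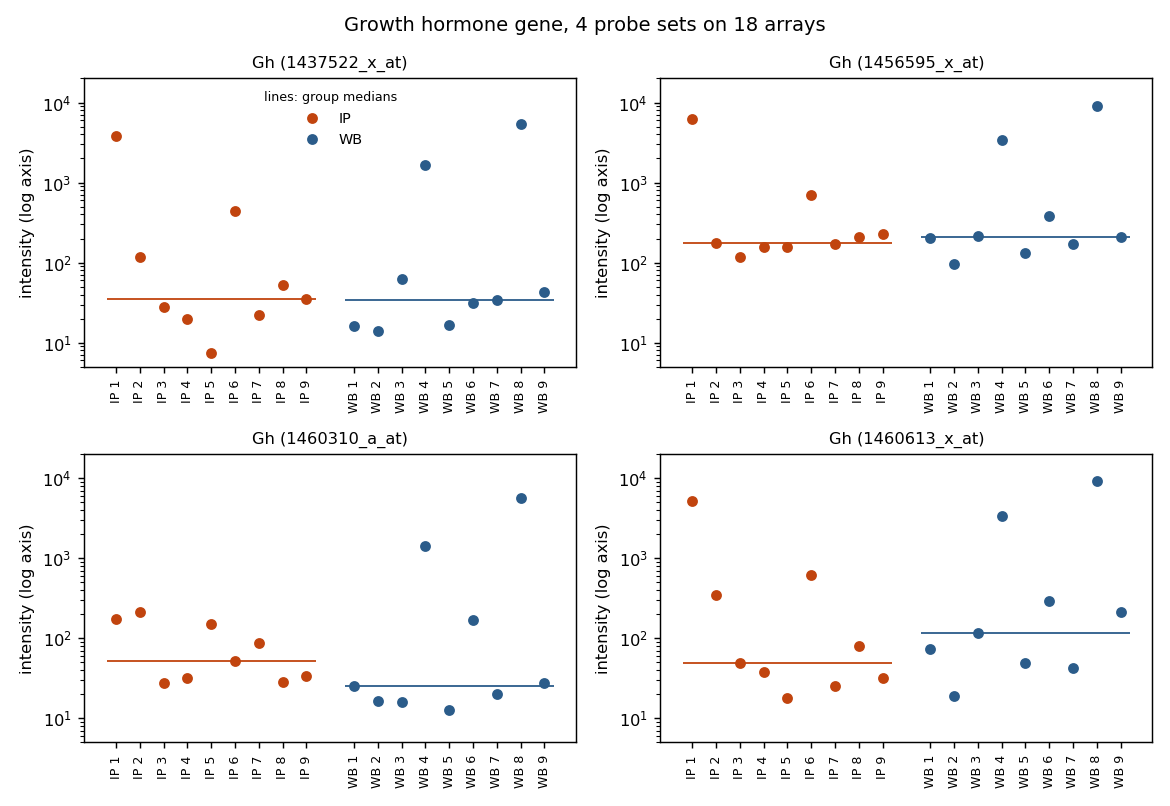
Deposited intensity (log axis) of the 4 Gh probe sets on each of the 9 IP arrays (orange) and 9 WB arrays (blue), with a line at each group's median. IP 1, WB 4 and WB 8 stand at 1666.9 or more in all panels but that of 1460310_a_at, where IP 1 is at 172.8 and WB 4 at 1406.6.

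Smaller Gh signals occurred on other arrays. IP 6 stood high on 2 Gh probe sets, 1437522_x_at (447.1) and 1460613_x_at (617.9). IP 2 also stood high on 2 of them and WB 6 on 1, 1460310_a_at (170.2). No other gene of the 7 stood high on IP 2, IP 6 or WB 6.

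Prl, on 1429287_a_at, had a lowest value of 16, a median of 57.1 and a highest value of 774.0 in IP, again on IP 1, and IP 2 was next with 203.6. In WB the lowest value was 17.5, the median 40.2 and the highest 1027.5 on WB 8, followed by 804.2 on WB 4 and no more than 109.2 on the others. The same 3 arrays were thus the highest for Prl and for 3 of the 4 Gh probe sets. The proportions differed between the hormones: the excess of WB 4 over its group median was 24.2% to 36.6% of that of WB 8 for the Gh probe sets and 77.4% for Prl. The excess of IP 1 was 72.6% of that of WB 8 for Prl, and for Gh it was 68.9% on the brightest probe set, 70.2% and 56.6% on 1437522_x_at and 1460613_x_at, and 2.12% on 1460310_a_at.

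Pomc behaved differently from Gh and Prl on WB 4. Its brightest probe set, 1455858_x_at, had a lowest value of 37.2, a median of 237.0 and a highest value of 791.3 in IP, on IP 1, with 380.2 next. In WB the lowest was 276.3, the median 392.0 and the highest 3325.8 on WB 8, while WB 6 had 546.0 and WB 4 had 536.5. WB 8 was thus 8.48-fold its group median, IP 1 3.34-fold and WB 4 1.37-fold. Probe set 1433800_a_at was highest on WB 8 in WB (809.6, next 282.6), and in IP it ran between 102.7 and 243.9, with 124.9 on IP 1. WB 8 was thus the highest WB array on both Pomc probe sets, and the probe sets disagreed on IP 1. For Gh and Pomc alike, the probe sets that peaked in IP on IP 1 had names ending in _x_at. The _a_at probe sets read 172.8 for Gh and 124.9 for Pomc on IP 1, while that of Prl read 774.0. The cause of this disagreement was not tested.

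Cga, on 1418549_at, had a lowest value of 18.1, a median of 35.5 and a highest value of 206.3 in IP, on IP 1. In WB its lowest value was 18.5, its median 64 and its highest 460.7 on WB 8, with 207.0 on WB 4. These are at least 1.42-fold the group median on IP 1, 3.16-fold on WB 8 and 1.42-fold on WB 4, and the same 3 arrays were the highest for Cga. The excess of Cga over the group median was 43.1% of that of WB 8 on IP 1 and 36.1% on WB 4.

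Tshb and Lhb, beta subunit genes of TSH and LH, did not share this pattern. Tshb, on 1450371_at, had a lowest value of 84.0, a median of 123.1 and a highest value of 345.8 in IP, and its lowest IP array was IP 1. In WB it had a lowest value of 145.9, a median of 228.5 and a highest value of 283.4, with 208.6 on WB 4 and 248.3 on WB 8. Lhb, on 1450795_at, had 25.0, 55.5 and 126.5 in IP and 78.0, 90.9 and 145.1 in WB (lowest, median and highest), and WB 8 was the highest WB array at 1.6-fold the median. No array stood high for Tshb or Lhb.

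Fshb, on 1450996_at, was a dim probe set with a lowest value of 7.7, a median of 11.8 and a highest value of 153.6 in IP, on IP 1, and 47.3 on IP 9. In WB it ran from 9.4 through a median of 52.9 to 125.1 on WB 8. IP 1 and WB 8 were thus the highest arrays of their groups for Fshb too, and IP 1 was at least 1.05-fold its group median. All of these Fshb values except that of IP 1 lay in the range of the bacterial controls (7.4 to 145.6), also that of IP 9, which was 4.02-fold its group median.

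**Figure D2:**
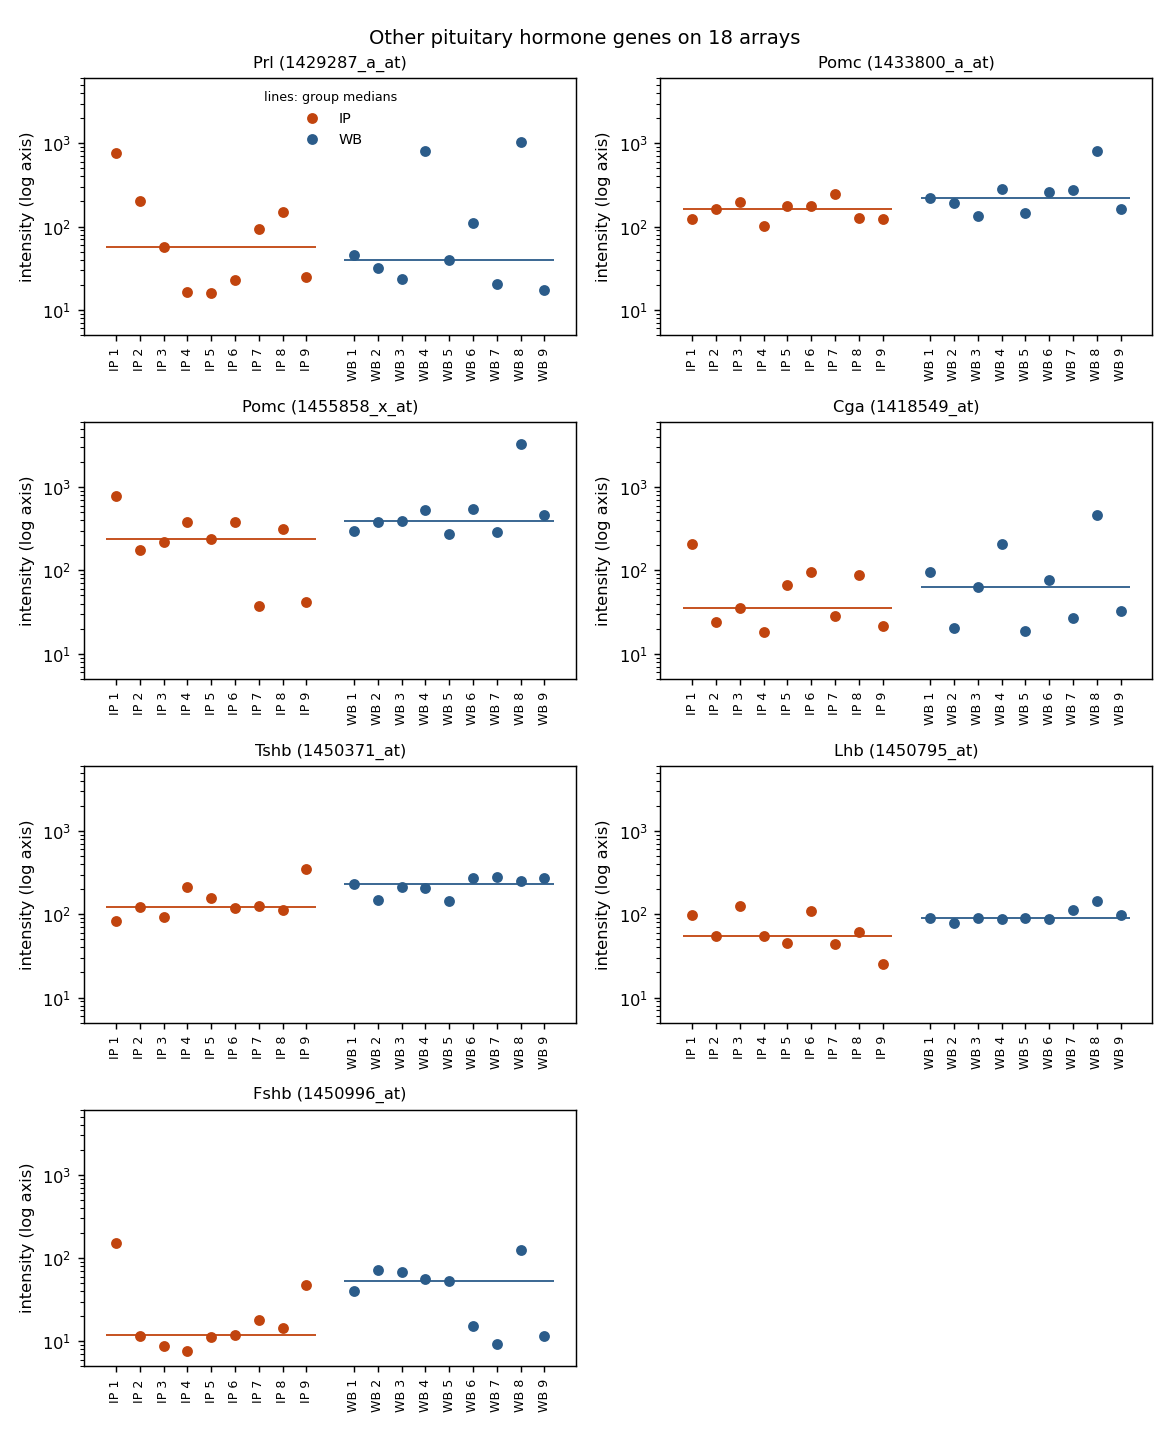
Deposited intensity (log axis) of the 7 probe sets of Prl, Pomc, Cga, Tshb, Lhb and Fshb on each of the 9 IP arrays (orange) and 9 WB arrays (blue), with a line at each group's median. Prl is highest on IP 1, WB 4 and WB 8, Pomc is high in WB on WB 8 alone, and Tshb and Lhb have no array 4-fold over the group median.

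Counted by array, 4 of the 7 genes stood high on IP 1 (Gh, Prl, Cga and Fshb), 4 on WB 8 (Gh, Prl, Pomc and Cga) and 2 on WB 4 (Gh and Prl). IP 2, IP 6 and WB 6 had 1 each (Gh), IP 9 had 1 (Fshb), and the other 11 arrays had 0. By probe set, 6 of 11 stood high on IP 1, where 2.15% of all probe sets with 1 gene symbol did, 7 of 11 on WB 8, where 0.507% did, and 5 of 11 on WB 4, where 0.584% did. On IP 6, 2 of 11 stood high, and 3.05% of all probe sets with 1 gene symbol did. Against the higher of the group median and 145.6, Prl was still at least 4-fold on IP 1, WB 8 and WB 4. So was every Gh probe set on WB 8 and WB 4, and on IP 1 all but 1460310_a_at (1.19-fold). On WB 8 Pomc 1455858_x_at passed (8.48-fold) and 1433800_a_at did not (3.63-fold). On IP 6 only Gh 1460613_x_at passed (4.24-fold), and the brightest Gh probe set was at 3.98-fold. Cga and Fshb were below 4-fold on those arrays.

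Gh, Prl, Cga and the brightest Pomc probe set varied more between WB arrays than most probe sets. Of all 45037 probe sets, only 3 to 9 had a larger SD of log2 intensity over the 9 WB arrays than a given Gh probe set, 11 had a larger one than Prl and 44 than Cga. For the brightest Pomc probe set 0.611% of the probe sets had a larger SD, for Fshb 5.45%, for Pomc 1433800_a_at 11.5%, for Tshb 52% and for Lhb 74.9%. Over the IP arrays the order was looser: 10 to 173 probe sets exceeded the Gh probe sets other than 1460310_a_at, which 25.6% of probe sets exceeded, 1.09% exceeded Prl and 31.2% exceeded Cga.

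Few other probe sets were high on WB 4 and WB 8. Among the probe sets with 1 gene symbol, 5 (0.0143%) on WB 4 were at least 4-fold the group median and at an intensity of at least 500, and all 5 belonged to Gh and Prl. On WB 8 there were 9 (0.0258%), of which 6 belonged to Gh, Prl and Pomc. The others on WB 8 were 2 probe sets of Ube3a, a ubiquitin ligase gene, and 1 of Rfng, a fringe glycosyltransferase gene. The other 7 WB arrays had 0 to 5 such probe sets and none of the hormone genes. On IP 1 there were 99 (0.283%), 4 of them hormone probe sets, and the other IP arrays had 40 to 191, of which 1 of the 191 on IP 6 (0.547%) belonged to Gh and 0 on the remaining 7 IP arrays were hormone probe sets.

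Pairs of arrays were compared by the high probe sets they shared. WB 4 and WB 8 shared 5 high probe sets, all for Gh and Prl, which is 100% of those high on WB 4 and 55.6% of those on WB 8. IP 1 and WB 4 shared 4, all for Gh and Prl (4.04% of IP 1 and 80% of WB 4). IP 1 and WB 8 shared 5 (5.05% of IP 1 and 55.6% of WB 8), of which 4 were for Gh and Prl and 1 for Ube3a. Of the 81 pairs of an IP and a WB array 67 shared 0, 4 shared a hormone probe set and 8 shared nothing but probe sets of Xist, the X-inactivation transcript. Of the 36 WB pairs, 27 shared 0, 6 shared only Xist and 1 shared hormone probe sets. The arrays that shared Xist were IP 3, IP 4, WB 2, WB 3, WB 6 and WB 7, and not IP 1, WB 4 or WB 8. The sex of the mice was not part of any fit. Among the 36 IP pairs, 3 shared 0, 1 shared a hormone probe set (Gh, IP 1 and IP 6), and up to 6 probe sets were shared, as by IP 1 and IP 4, none of them for a hormone gene (6.06% of IP 1 and 15% of IP 4).

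**Figure D3:**
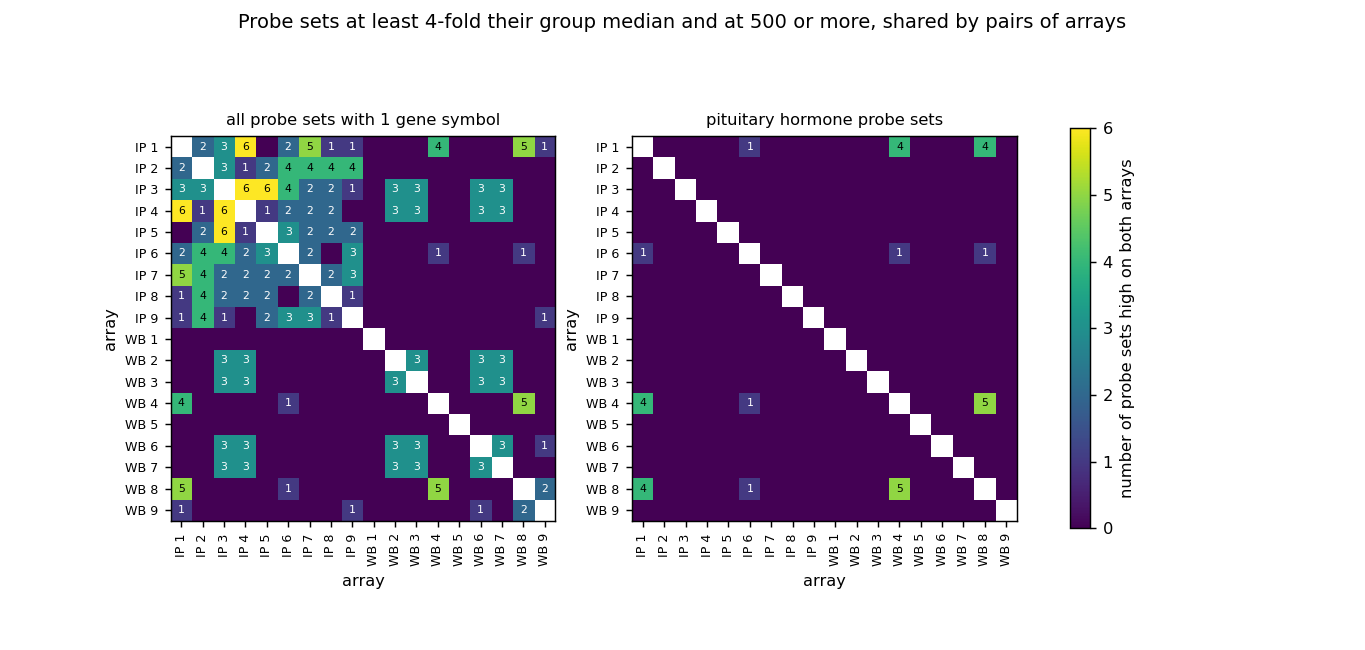
Number of probe sets at least 4-fold their group median and at an intensity of at least 500 on both arrays of a pair, for all probe sets with 1 gene symbol (left) and for the 11 pituitary hormone probe sets (right), with IP arrays before WB arrays on both axes. Hormone probe sets are shared between WB 8 and WB 4 (5), IP 1 and WB 4 (4), IP 1 and WB 8 (4), and singly between IP 6 and each of IP 1, WB 4 and WB 8.

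Few of the hormone probe sets passed the test between the groups. In the limma fit over all probe sets, 0 of the 11 probe sets were higher in IP and 1 was lower at adjusted p of at most 0.05, where 14.2% of all probe sets were higher and 30.8% lower. The share of members lower, 1 of 11, was below that background, and 2 of 11 were lower at an unadjusted p under 0.05. The probe set that fell was Pomc 1455858_x_at, at a log2 intensity of 7.81 ± 1.28 in IP and 8.99 ± 1.08 in WB (SD, n = 9 each), a log2 difference of -1.18 (SE 0.48, 95% confidence interval -2.16 to -0.20, adjusted p = 0.0468, limma). IP was RNA captured on beads and WB was RNA of the whole brain. Capture, cell number and RNA per cell cannot be told apart in such a difference, and its cause was not tested. The call was lost in 11 of the 18 fits that each left out 1 array (IP 2, IP 3, IP 5, IP 7, IP 9, WB 2, WB 3, WB 4, WB 6, WB 8 or WB 9), over which the difference ran from -1.41 to -0.84. Without IP 1, WB 4 and WB 8 together the difference was -1.0 with adjusted p = 0.0554 (limma). Without an intensity trend Pomc 1455858_x_at missed the threshold (adjusted p = 0.0646, limma) and Tshb was called instead (adjusted p = 0.0403, limma). The other Pomc probe set was not called with or without the 3 arrays (-0.56, SE 0.29, adjusted p = 0.119 with all arrays).

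For Gh the differences were small against their errors. The brightest probe set averaged 8.32 ± 1.75 in IP and 8.72 ± 2.19 in WB on the log2 scale (SD, n = 9 each), a log2 difference of -0.39 (SE 0.77, adjusted p = 0.709, limma), with a 95% confidence interval of -1.98 to 1.19. The other 3 Gh probe sets differed by -0.77 to -0.16, with SE of 0.83 to 1.01. Without IP 1, WB 4 and WB 8 the 4 differences were 0.13, 0.54, 0.79 and -0.14, so that 3 of 4 changed sign.

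Prl differed by -0.13 (SE 0.70, adjusted p = 0.901, limma), and by 0.40 without those 3 arrays. Cga differed by -0.35 (SE 0.47, adjusted p = 0.573, limma), and by -0.02 without them. Tshb was at 7.29 ± 0.58 in IP and 7.88 ± 0.33 in WB (SD, n = 9 each), a log2 difference of -0.59 (SE 0.26, adjusted p = 0.0672, limma). It passed the threshold without IP 4 or without IP 9. Lhb differed by -0.51 (SE 0.27, adjusted p = 0.126, limma). Fshb differed by -0.62 (SE 0.38, adjusted p = 0.194, limma), and its difference of -0.89 without IP 1 passed the threshold.

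All 11 differences lay below 0, while the median difference of all probe sets in the same fit was -0.23. Median centring moved that median by 0.42, and quantile normalization moved it by 0.34. After median centring 6 of the 11 hormone differences lay below 0, and after quantile normalization 7 did. With arrays scaled on the hybridization controls, 6 of the 11 were called lower, and the median of all probe sets shifted by -0.94. Those controls averaged 13.69 to 15.31 on the log2 scale in IP and 13.05 to 13.54 in WB. IP 1 was the lowest IP array and WB 4 the lowest WB array (13.05), with WB 6 next to it at 13.06. WB 8, where the hormone values were highest in WB, was at 13.36, inside the WB range. The part of these controls in the values of the hormone genes on these arrays was not tested.

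**Figure D4:**
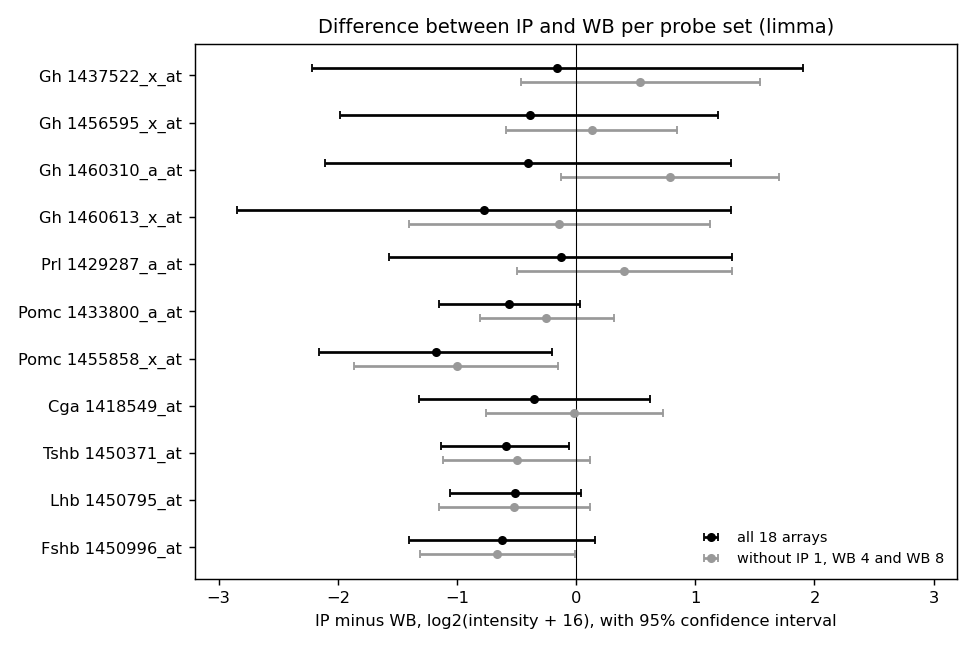
Log2 difference between IP and WB (IP minus WB) of each of the 11 probe sets with its 95% confidence interval from limma, with all 18 arrays (black) and without IP 1, WB 4 and WB 8 (grey). Intervals of Gh and Prl are wide and cross 0 in both fits, and the interval of Pomc 1455858_x_at lies below 0 with all arrays (-2.16 to -0.20).

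Within a group, the hormone genes were compared with each other on their brightest probe sets. Arrays that stood high on that probe set of either gene of a pair were left out, which left 7 to 9 arrays. IP 2, IP 6 and WB 6, which stood high on other Gh probe sets only, were kept. In none of the 42 pairs did Pearson's r pass an adjusted p of 0.05 by two-sided exact permutation test; 2 pairs in IP and 2 in WB had an unadjusted p under 0.05. The smallest adjusted p was 0.31, for Tshb and Lhb in IP (r = -0.80, rho = -0.85, exact permutation p = 0.00738 for r and 0.00607 for rho, 9 arrays, r = -0.75 without the 2 arrays farthest from the median of Tshb). Pomc and Lhb in IP had r = 0.69 and rho = 0.60 over 9 arrays (exact permutation p = 0.0435 and 0.0968, adjusted p = 0.496 and 0.508, r = 0.32 without the 2 farthest). In WB, Gh and Tshb had r = 0.76 and rho = 0.50 over 7 arrays (exact permutation p = 0.0464 and 0.267, adjusted p = 0.496 and 0.702, r = 0.67 without the 2 farthest). Gh and Cga had r = 0.74 and rho = 0.75 over the same 7 WB arrays (exact permutation p = 0.0472 and 0.0663, adjusted p = 0.496 and 0.508, r = 0.71 without the 2 farthest). Gh and Prl had r = 0.53 and rho = 0.14 over the same 7 WB arrays (exact permutation p = 0.218 and 0.783, adjusted p = 0.601 and 0.939), and r = -0.41 without the 2 farthest. On the brightest Gh probe set, r of Gh and Prl was thus 0.961 over all 9 WB arrays and 0.53 without WB 4 and WB 8. On Gh 1460310_a_at, which most resembled Prl, r with Prl was 0.82 over those 7 arrays, a pair chosen for its likeness and not tested. On those 7 WB arrays Prl (17.5 to 109.2) and Cga (18.5 to 97.0) lay within the range of the bacterial controls. So did Lhb on all IP arrays (25.0 to 126.5). For pairs with these genes, r therefore cannot show whether a relation was present or absent.

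The genes most like each high hormone gene over the 9 WB arrays were listed among 25600 probe sets with 1 gene symbol and a highest WB value of at least 200, as a description of arrays that share 1 protocol. For Gh, the order of Pearson's r was Prl (0.961), Ckmt1 (0.950), Vma21 (0.941), Cga (0.937) and Gapvd1 (0.928). On WB 8 the non-hormone genes were between 1.24- and 1.4-fold their medians, against at least 7.06-fold for Prl and 3.16-fold for Cga. For Prl the closest was Gh on 1460310_a_at (0.975), followed by Ckmt1 (0.928), Sema5b (0.904), Vma21 (0.902) and Esyt2 (0.900). For Pomc, which peaked on WB 8 alone, the closest were Slc35a5 (0.971), Eci2 (0.963), Etf1 (0.946), Banf1 (0.921) and Cmpk2 (0.913), and no hormone gene was among them.

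Genes of the same tissues and of neighbouring ones were read from 8 further lists holding 75 measured genes. The 3 arrays were singled out by the hormone genes, so the sums of those genes only restate that choice: they were 10.7-fold the group median on IP 1, 13.4-fold on WB 8 and 4.98-fold on WB 4, and 0.667- to 1.87-fold on the other 15 arrays. Gh made up 74.6% of the sum on IP 1, 62.7% on WB 8 and 64.2% on WB 4. The other 8 lists summed to 0.745- to 1.11-fold on IP 1, 0.737- to 1.08-fold on WB 8 and 0.761- to 1.11-fold on WB 4. Sums follow the brightest genes, such as Cpe in the list of other pituitary cell products (53.4% of it on IP 1) and Ttr in the choroid plexus list (84.6%). The median fold over the genes of a list weighs them equally and was 0.875 to 1.09 on IP 1, 0.787 to 1.03 on WB 8 and 0.92 to 1.11 on WB 4 over these 8 lists. Of their 75 genes, 1 stood high on IP 1 (Slc6a13, a GABA and taurine transporter gene of meninges and choroid plexus, at 197.7 against an IP median of 42.9), 0 on WB 8 and 0 on WB 4. The IP arrays had 0 to 3 such genes and the WB arrays 0 to 1. Of all probe sets with 1 gene symbol, 2.15% stood high on IP 1, 0.507% on WB 8 and 0.584% on WB 4. With 75 genes such shares leave room for few high genes, so these counts do not set the lists apart.

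**Figure D5:**
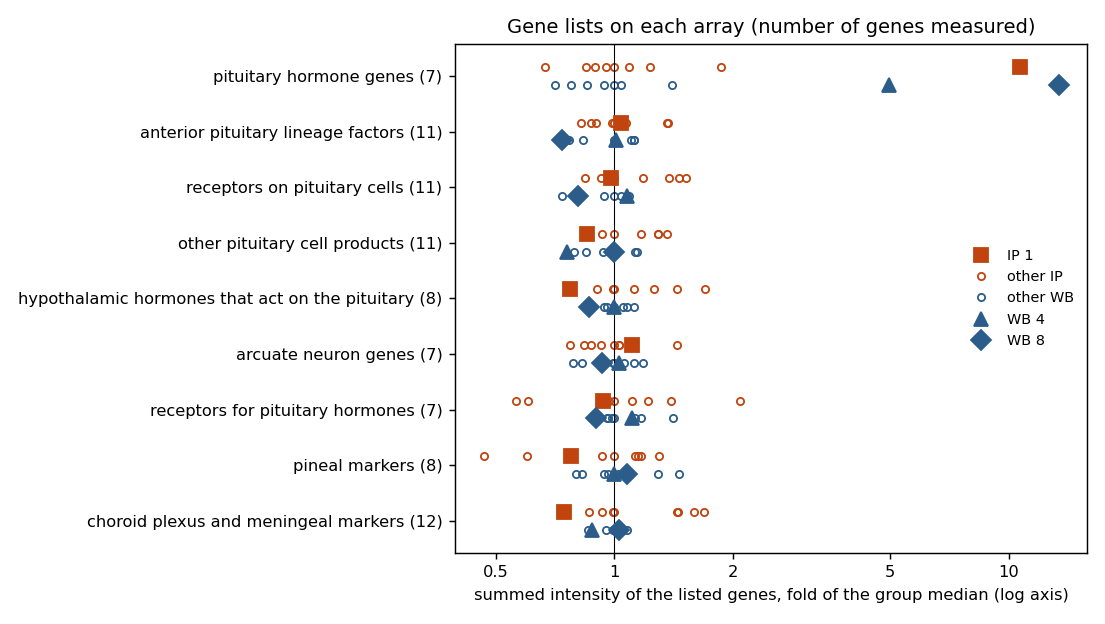
Summed intensity of each gene list on each array as a fold of its group median (log axis), with IP arrays in orange above WB arrays in blue, and IP 1, WB 4 and WB 8 as filled symbols. The 7 pituitary hormone genes are at 10.7-fold on IP 1, 4.98-fold on WB 4 and 13.4-fold on WB 8, and the other 8 lists are at 0.737- to 1.11-fold on those arrays.

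The anterior pituitary lineage factors are transcription factors that specify and maintain the hormone cells. Values of 11 such genes were used. The list summed to 1.04-fold the group median on IP 1, 0.737-fold on WB 8 and 1.01-fold on WB 4. Its genes lay between 0.538-fold (Tbx19) and 2.39-fold (Lhx3) their group median on IP 1, with 5 of 11 above it. They lay between 0.214-fold (Lhx4) and 1.2-fold (Hesx1) on WB 8, with 2 of 11 above, and between 0.785-fold (Nr5a1) and 2.2-fold (Hesx1) on WB 4, with 6 of 11 above. These genes are named as the ends of the range, and many of their values lie in the range of the bacterial controls. Whether pituitary tissue accompanied any brain was not tested beyond these values.

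Between the groups, 4 of the 11 lineage factors were higher in IP and 1 lower, with a median difference of 0.51, against 21.7% higher, 21.7% lower (43.4% in either direction) and a median of 0.00 over all genes. The 4 were Neurod4 (1.00, SE 0.38, adjusted p = 0.0369), Eya1 (0.83, SE 0.23, adjusted p = 0.0049), Six6 (0.80, SE 0.32, adjusted p = 0.0447) and Gata2 (0.76, SE 0.22, adjusted p = 0.00566), all by limma. Lhx3, a LIM homeobox factor of the early pituitary and of motor neurons, was lower (-1.30, SE 0.36, adjusted p = 0.00415, limma). The Neurod4 call was lost in 8 of the 18 fits with 1 array removed (IP 1, IP 2, IP 5, IP 9, WB 2, WB 5, WB 8 or WB 9; 0.79 to 1.18), and that of Six6 in 11 (IP 1, IP 5 to IP 9, WB 2, WB 3, WB 5, WB 6 or WB 8; 0.69 to 0.99). Eya1 had 2 other probe sets that were lower in IP. Both medians of Neurod4 (131.9 in IP, 75.1 in WB) and of Six6 (87.5 and 46.2) lay within the range of the bacterial controls. So did the IP median of Lhx3 (54.4). Scaling on the hybridization controls put Eya1 at -0.12, Six6 at -0.14, Gata2 at -0.18 and Neurod4 at 0.06. Lhx3 was not called after quantile normalization (-0.81, adjusted p = 0.0517, limma) or with the mean over probe sets (-0.31). The shares over all genes, 21.7% higher and 21.7% lower, apply beside the counts of every list below.

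Of 11 receptors found on pituitary cells, 1 was higher in IP (Gnrhr, the gonadotrophin-releasing hormone receptor, 0.86, SE 0.32, adjusted p = 0.0321, limma) and 1 lower (Drd2, the dopamine receptor that restrains lactotrophs, -0.97, SE 0.33, adjusted p = 0.0198, limma). The median difference was 0.09. Drd2 was not called after quantile normalization (-0.49) or median centring (-0.54). The Gnrhr difference was -0.08 under hybridization control scaling, and in 6 of the 18 fits with 1 array removed it was not called (IP 9, WB 1, WB 2, WB 3, WB 5 or WB 8; 0.72 to 0.99). Gnrhr was also not called with the mean over probe sets (0.49). The WB median of Gnrhr (55.6) and the IP median of Drd2 (93.7) lay within the range of the bacterial controls. Among 11 measured genes for other pituitary cell products, 3 were higher and 4 lower, with a median of -0.10. Vip, a vasoactive peptide, was higher by 1.10 (SE 0.18, adjusted p = 2.13e-05, limma) and Dlk1, a transmembrane protein of the Notch ligand family, by 0.94 (SE 0.19, adjusted p = 0.000183, limma), together with the peptide-trimming enzyme Cpe (0.63), which was at -0.48 after quantile normalization and -0.31 after hybridization control scaling. Nmb (-1.23), the prohormone convertase Pcsk1 (-1.13), Gal and the granin Chga were lower. The calls of Nmb and Gal were lost after quantile normalization and after median centring, and that of Chga after median centring. Vip (0.16) and Dlk1 (0.00) were not called after hybridization control scaling, and Dlk1 was also not called with the mean over probe sets (0.15). The IP median of Nmb (135.9) lay within the range of the bacterial controls.

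The hypothalamic hormones that act on the pituitary moved in both directions, with 3 of 8 measured genes higher, 3 lower and a median of -0.11. Crh, which drives corticotrophs, was higher in IP by 2.30 (SE 0.18, adjusted p = 1.43e-10, limma). Adcyap1 was higher by 1.58 (SE 0.18, adjusted p = 1.31e-07, limma), and Ghrh, which drives somatotrophs, by 1.44 (SE 0.41, adjusted p = 0.00527, limma). Th, the enzyme that commits tyrosine to dopamine, was lower by a log2 difference of -1.42, Trh by -1.24 and Avp by -0.92. After quantile normalization Trh was at -0.83 and Avp at -0.48, after median centring they were at -0.81 and -0.50, and neither was then called, while Th still was. Ghrh (0.50) was not called after hybridization control scaling. The WB median of Ghrh (41.3) and the IP medians of Trh (132.4) and Th (71.1) lay within the range of the bacterial controls. On IP 1 the 8 genes lay between 0.27-fold (Ghrh) and 2.97-fold (Trh) their IP median, with 2 of 8 above it.

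Over all genes 21.7% were higher in IP and 21.7% lower. Of 7 measured genes of arcuate neurons, where brain Pomc is made, 3 were higher in IP and 0 lower, with a median of 0.30. These were the leptin receptor Lepr (1.24, SE 0.27, adjusted p = 0.00047, limma), the homeobox gene Isl1 (1.14, SE 0.21, adjusted p = 7.28e-05, limma) and Npy (0.40, SE 0.16, adjusted p = 0.0418, limma). Npy lost its call in 9 of the 18 fits with 1 array removed (IP 1, IP 2, IP 9, WB 1, WB 2 or WB 5 to WB 8; 0.32 to 0.46) and was at -0.54 after hybridization control scaling. Lepr (0.30) and Isl1 (0.19) were not called after that scaling, nor with the mean over probe sets (0.36 and 0.40). Pomc 1455858_x_at was lower in the fit that called these 3 genes higher. Agrp, Kiss1 and Prlr of the arcuate list had no probe set with 1 symbol. Of 7 measured receptors for pituitary hormones, 1 was higher (Ghr, the growth hormone receptor, 1.08, with 2 other probe sets lower in IP) and 1 lower (Mc2r, the ACTH receptor, -1.17), with a median of 0.04. The Mc2r intensities had medians of 7.8 in IP and 51.5 in WB, which lay within the range of the bacterial controls. Mc2r was not called after quantile normalization (-0.88), after median centring (-0.75) or without IP 1, WB 4 and WB 8 (-1.08), and a mean intensity of at least 100 left it out. Ghr (0.14) was not called after hybridization control scaling. Prlr, Lhcgr and Mc4r were not among the probe sets with 1 symbol.

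Markers of 2 other tissues next to the brain were also read. Of 8 measured pineal genes, 1 was higher in IP (Crx, 1.27) and 1 lower (Rom1, -0.74, a call lost without IP 6, WB 1, WB 2 or WB 4, with differences of -0.85 to -0.66 over the 18 fits, and also after quantile normalization, -0.22, and median centring, -0.32), with a median of -0.10. Of 12 choroid plexus and meningeal genes, 1 was higher and 3 were lower, with a median of -0.19. Ttr, the transthyretin gene that is a main product of choroid plexus, was higher on its brightest probe set by 0.88, but 2 of its 4 probe sets were lower in IP, and it was at -0.25 after quantile normalization and -0.06 after scaling on the hybridization controls. Slc6a13 (-1.48), Lum (-1.34) and Col1a2 (-0.79) were lower. The calls of Col1a2 after median centring (-0.37) and of Lum after quantile normalization (-0.88) were lost, and Crx (0.33) was not called after hybridization control scaling. Col1a2 was also not called with the mean over probe sets (-0.23). Both medians of Crx (125.5 in IP, 33.6 in WB) and of Lum (24.6 and 106.0) lay within the range of the bacterial controls. So did the IP medians of Rom1 (75.8) and Slc6a13 (42.9).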

How the data were processed

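RNA of 9 IP and 9 WB samples was hybridised to mouse arrays. The deposited intensities were produced by the authors with MAS5 (processing notes of the submitters, no version named). They are linear, with a mean of 500 on each array after the lowest and highest 2% of values were left out, as tested here. Arrays have no read depth, and their number limits the precision. Groups and replicate numbers came from the labels. No sample column was left out.

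For the re-analysis, log2(intensity + 16) was fitted with limma 3.58.1 in R 4.3.3 (empirical Bayes with an intensity trend, Benjamini-Hochberg over 45037 probe sets, 64 array controls left out), so folds of dim probe sets are understated. Threshold: adjusted p of 0.05. A gene's brightest probe set (highest mean over the 18 arrays) stood for it in lists. Symbols came from GEO's platform annotation, and of the probe sets 34741 had an Entrez ID found in a RefSeq table, which renamed 0. Exact permutations used scipy 1.17.1. The fit was tested on simulated data.

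The 7 genes and the lists were chosen with earlier results of these data known. Named list genes were up to 2 rises and 2 falls per list past the threshold, and every gene behind a count of 5 or fewer. The genes most alike were the 5 with the highest r over the WB arrays, for members reaching 500 in WB. Alternatives were quantile normalization, pseudocounts of 1 and 64, centring on array medians, scaling on 18 hybridization control probe sets, a mean intensity of at least 100, a replicate block, no intensity trend, array weights, the mean over probe sets, and leaving out each array. Leaving out IP 1, WB 4 and WB 8 together was chosen after seeing the data.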

Additional observations from a re-analysis of the deposited data

Results flagged for a closer look

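The highest and lowest array of each group was screened for a gap to its nearest neighbour larger than 0.493 of the group's range, on the log2(intensity + 16) scale. Of 84 groups of values screened, 9 met this limit, and chance alone meets it in about 1 of 20. For Gh on 1456595_x_at, IP 1 was at 12.60 and the other IP arrays at 7.08 to 9.50. For Fshb, IP 1 was at 7.41 and the other IP arrays at 4.57 to 5.98. For Pomc, WB 8 was at 11.71 on 1455858_x_at, with the other WB arrays at 8.19 to 9.13, and at 9.69 on 1433800_a_at, with the others at 7.23 to 8.22. Gh and Prl in WB did not meet the limit, since WB 4 and WB 8 were both high and stood near each other. Among the listed genes, Gnrhr was at 8.49 on IP 9 (other IP arrays 6.83 to 7.66). Vip was at 8.95 on IP 6 (other IP arrays 9.66 to 10.34), and Crx was at 5.32 on IP 6 (other IP arrays 6.61 to 7.78). Th was at 6.89 on WB 4 (other WB arrays 7.61 to 8.30), and Col1a2 was at 9.77 on WB 3 (other WB arrays 9.35 to 9.56).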

How the results depend on the processing

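Of the 11 hormone probe sets, 1 was lower in IP (Pomc 1455858_x_at). This count was 0 with a pseudocount of 64, quantile normalization, median centring, array weights, and without IP 1, WB 4 and WB 8, 6 with hybridization control scaling, and 0 to 2 with 1 array left out. Without an intensity trend the count stayed at 1, but the probe set called was that of Tshb, and Pomc was lost. Counted by gene on the brightest probe set it was 1, with 0 under those same settings, 5 with hybridization control scaling, 2 with the mean over probe sets, and 0 to 2 with 1 array left out. None was higher in IP under any setting run. Over the lists, 17 genes were higher in IP (26 with median centring, 2 with hybridization control scaling, 10 with the mean over probe sets) and 14 lower (9 with quantile normalization, 5 with median centring, 46 with hybridization control scaling). Signs turned for Gh 1437522_x_at (0.12 with quantile normalization, 0.27 with median centring, 0.54 without the 3 arrays, -0.81 to 0.54 with 1 array left out), Gh 1456595_x_at (0.03 with median centring, 0.13 without the 3 arrays, -0.93 to 0.16 with 1 left out, the turn being without WB 8), Gh 1460310_a_at (0.02, 0.79, and -0.65 to 0.31 in the same order, the turns being without WB 4 or WB 8) and Prl (0.26 with quantile normalization, 0.30 with median centring, 0.40 without the 3 arrays, -0.52 to 0.30 with 1 left out). They also turned for Cga (0.13 with quantile normalization, 0.07 with median centring), Lhb (0.07 with quantile normalization), Eya1 (-0.12 with hybridization control scaling, -0.60 with the mean over probe sets), Gnrhr (-0.08), Six6 (-0.14), Gata2 (-0.18) and Npy (-0.54) with hybridization control scaling, Cpe (-0.48 with quantile normalization, -0.31 with hybridization control scaling), Ghr (-0.32 with the mean over probe sets) and Ttr (-0.25 with quantile normalization, -0.06 with hybridization control scaling, -0.66 with the mean over probe sets). The cause of these changes was not tested. The count of correlated pairs was 0 under every setting run.

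Same-numbered IP and WB arrays had correlations of deviations from their group means of -0.05 to 0.08, with 0 of 9 over 0.1, so the numbers were not taken as pairs, and 2 of 9 IP arrays correlated best with their own number. With a replicate block, 1 hormone probe set was lower in IP and 15 list genes were higher and 15 lower. Signal near that of the bacterial controls limits what dim probe sets show.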
